A study of Mus musculus with 15 samples.

Results

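Nocturnin (Noct) and 8 further genes of mouse mRNA deadenylation were followed over the circadian day in ribosome-protected fragments of the liver. The members are the genes with the symbols Noct, Cnot1, Cnot6, Cnot6l, Cnot7, Cnot8, Pan2, Pan3 and Parn, and all their RefSeq transcripts in the files were taken, which gave 19 transcripts of 9 genes out of 28167 transcripts. Genes with a symbol numbered 20101 in all. Livers came from wild-type C57BL/6N males aged 8 to 10 weeks, kept for 2 weeks in 12 h of light and 12 h of darkness and then moved to constant darkness for 24 h. Mice were killed at 4-h steps from CT0 to CT24, where CT is circadian time in hours, and each of the 7 times had 2 mice. No group carried a mutation or a treatment, so the comparison is between times. Whole liver was used, and in such a sample a change in the share of a cell type and a change in ribosome-bound RNA per cell cannot be told apart. The last pair of libraries is named CT24 in its titles but CT00 in another label, and the title was followed.

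Deadenylases shorten the poly(A) tail of mRNAs, which is commonly the first step of mRNA decay. In the CCR4-NOT complex, Cnot1 is the scaffold, and the catalytic subunits belong to a pair of enzyme families: Cnot6 and Cnot6l are nucleases of the EEP family (exonuclease, endonuclease, phosphatase), and Cnot7 and Cnot8 are nucleases of the DEDD family. Pan2 is the catalytic subunit of the PAN2-PAN3 complex, and Pan3 links it to the poly(A)-binding protein. Parn trims the 3′ ends of many small noncoding RNAs as well as poly(A) tails. Nocturnin is an EEP-family protein related to Cnot6, is known for a strong circadian rhythm of its mRNA in several tissues, and was long described as a deadenylase, while the purified protein removes a phosphate from NADP(H). The question asked of these data was how the ribosome-bound reads of Noct move over the day beside those of the deadenylases thought to be expressed constitutively.

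Ribosome profiling counts the fragments of mRNA that ribosomes shield from nuclease, so reads ahead of the coding region (CDS) mark ribosomes on the 5′UTR, often on short upstream open reading frames (uORFs). Noct (NM_009834) lies on the plus strand of chromosome 3, from 51224447 to 51251654 in GRCm38.p6, has 3 exons, and in the files has a 5′UTR of 657 nt, a CDS of 1293 nt and a 3′UTR of 1122 nt. Its 5′UTR holds 1 upstream ATG, at position 57, which opens a uORF of 435 nt (chr3:51224503-51224937, in exon 1) that ends 166 nt before the CDS. The windows around both start codons of Noct are shown because the reads ahead of and inside the CDS are compared, with the ATG in capitals.
Noct CDS start (chr3:51225092-51225118, plus strand): gcggcgcccggcATGtatcagagcccg
Noct uORF start (chr3:51224491-51224517, plus strand): cctgaggggcggATGcttgtcgcagcc
Cnot6 and Cnot7 gave the largest shares of 5′UTR reads among the members, and their short uORFs are shown whole for that reason, again with the start codon in capitals.
Cnot6 uORF of 24 nt (chr11:49712676-49712699, minus strand): ATGatgcttgtttgctttcaatga
Cnot7 uORF of 27 nt (chr8:40510172-40510198, minus strand): ATGacacaaatcttcaatcaagtataa
Cnot7 uORF of 15 nt (chr8:40510150-40510164, minus strand): ATGctccacatctag
The first of these Cnot6 uORFs starts 24 nt into the 5′UTR of NM_212484, where further uORFs of 21 and 132 nt start, and Cnot7 (NM_011135) has 4 uORFs, of 117, 54, 27 and 15 nt. The Cnot7 uORFs of 27 and 15 nt also lie in the 5′UTR of NM_001271542. That 5′UTR held 69 reads in all, against 490 for NM_011135, so most of the 490 lie outside the Cnot7 uORFs shown. How the reads divide between uORFs was not tested.

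Clock proteins bind E-boxes (CACGTG), E-prime boxes (AACGTG, or CACGTT on the opposite strand) and D-boxes (TTATGCAA and TTATGTAA), and these letters were searched on both strands of the RefSeq promoter windows of GRCm38.p6, which run from 250 bases before to 50 after a start site. Among all 32851 windows, 7.15% held the E-box, 4.68% the E-prime box and 1.66% the D-box. Windows were listed for 7 of the 9 genes, not for Cnot1 or Cnot7. The matches found were E-prime boxes of Cnot6l, 57 bases before a start site, and of Parn, 25 bases before it, and they are shown with the box in capitals.
Cnot6l (chr5:96161588-96161615, minus strand): ggcgagggacgAACGTGtgtgggtgtgt
Parn (chr16:13668179-13668206, minus strand): gctccgcccctAACGTGacacagatctg
None of these letters occurred in the single window listed for Noct, which says nothing of sites outside it.

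The 14 libraries held 40593197 to 90458783 counts. The labelled tissue was checked first: 6 of 6 hepatocyte markers were present, with a summed level of 30050.8 to 67575.1 CPM (counts scaled to the total count), while the 4 Kupffer cell markers summed to 61.5 to 162 CPM and the 3 lymphocyte markers to at most 0.383 CPM. A pair of libraries stood apart. In CT20 replicate 2 the 4 pancreatic acinar markers summed to 2030 CPM, against 43.4 CPM in CT24 replicate 2, 14.2 CPM in CT12 replicate 2 and at most 2.82 CPM elsewhere. These markers were higher in replicate 2 than in replicate 1 at 7 of 7 times. The counts above 0 of CT16 replicate 2 were even in 100% of cases, against 45.7% to 50.02% in the other libraries. Results are also given without both. Levels below are CPM after scaling by the trimmed mean of M-values (TMM). The scaling matters here, because with total counts the median transcript itself followed a cosine with a peak-to-trough difference of 0.40 (log2) and a peak at 22.5 h, against 0.01 with TMM.

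Noct reads rose and fell by more than an order of magnitude over the day, with the highest level at CT12 and the lowest at CT4. Raw counts over the whole transcript in replicates 1 and 2 were 193 and 139 at CT0, 59 and 28 at CT4, 496 and 414 at CT8, 2014 and 1642 at CT12, 892 and 600 at CT16, 217 and 258 at CT20, and 117 and 164 at CT24. In TMM CPM these were 3.26 and 2.24 at CT0, 0.914 and 0.531 at CT4, 6.20 and 6.55 at CT8, 24.9 and 28.6 at CT12, 14.5 and 12.0 at CT16, 5.19 and 4.31 at CT20, and 2.39 and 2.89 at CT24. Both CT12 libraries lay above all others, both CT16 libraries came next, and both CT4 libraries lay below all others, so that neither the highest nor the lowest time overlapped with another. The mean was 26.7 ± 2.62 CPM at CT12 and 0.723 ± 0.271 CPM at CT4 (SD, n = 2 each), a ratio of 37.0 between the means. The cycle closed after a day, with 2.75 ± 0.721 CPM at CT0 and 2.64 ± 0.355 CPM at CT24 (SD, n = 2 each).

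A 24 h cosine was fitted to every transcript whose mean count reached 10 per library, and its peak-to-trough difference (log2, from the top to the bottom of the fitted curve) and phase (the circadian time of the top) were taken. For Noct the peak-to-trough difference was 3.78 (13.7-fold), with a phase of 13.9 h (edgeR quasi-likelihood F test, adjusted p = 1.16e-05 over 17299 transcripts). A least-squares fit to log2(CPM + 0.5), which understates changes of low values, gave 3.53 ± 0.46 (SE, n = 14) with a 95% interval of 2.24 to 4.81 and a phase of 14.04 ± 0.524 h (SE). Fitted separately, the replicate 1 and replicate 2 series peaked at 14.2 and 13.9 h. Among the 1947 transcripts called rhythmic, Noct ranked 72nd by peak-to-trough difference, and their median difference was 0.96. Of the called transcripts, 408 (21.0%) peaked within 2 h before or after Noct. No other window of this width was counted, so the share does not show whether this time is a common one. The paper places the phase of most rhythmic transcripts near CT0. Without both libraries that stood apart, the difference was 4.17 with a phase of 14.4 h (adjusted p = 1.45e-05).

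**Figure D1:**
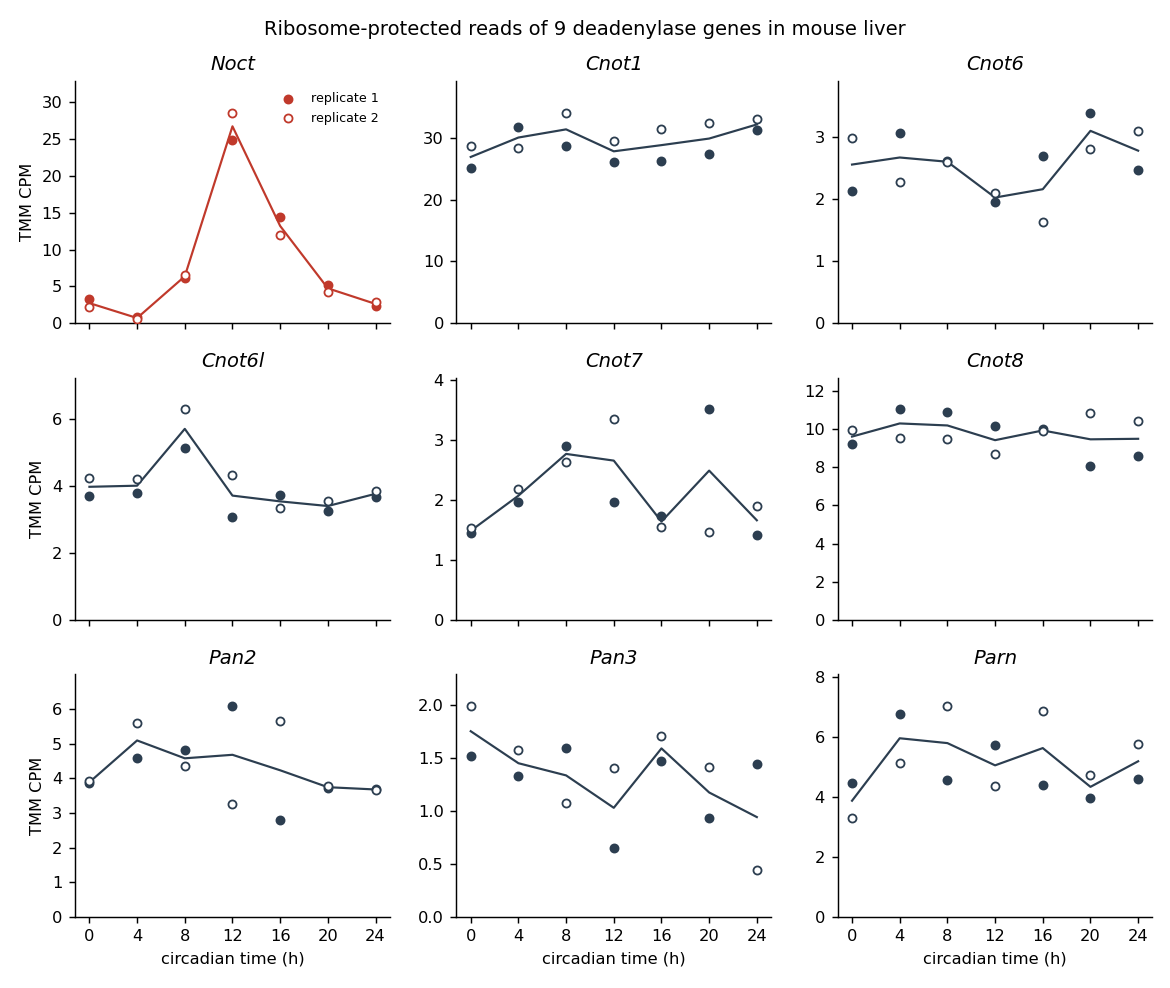
TMM CPM (y axis, starting at 0 and scaled to each gene) against circadian time in hours (x axis) for the 9 genes, where filled points are replicate 1, open points replicate 2 and lines join the means of 2 mice. Noct climbs from 0.723 CPM at CT4 to 26.7 CPM at CT12, while Cnot1 stays between 25.2 and 34.1 CPM and Cnot8 between 8.08 and 11.03 CPM.

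Noct reads over the 5′UTR rose and fell with those over the CDS. Counts in the 5′UTR were 17 and 25 at CT0, 8 and 1 at CT4, 83 and 77 at CT8, 432 and 213 at CT12, 145 and 52 at CT16, 60 and 40 at CT20, and 7 and 33 at CT24. Those in the CDS were 176 and 114 at CT0, 51 and 27 at CT4, 413 and 337 at CT8, 1566 and 1429 at CT12, 747 and 548 at CT16, 157 and 218 at CT20, and 110 and 131 at CT24. Both regions were thus highest in the CT12 libraries and lowest in CT4 replicate 2. The peak-to-trough difference was 4.57 ± 0.94 (SE) with a phase of 14.3 h for the 5′UTR and 3.92 ± 0.56 (SE) with a phase of 14.2 h for the CDS. The 3′UTR held 16 reads in CT12 replicate 1 and 0 in every other library.

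None of the 8 other deadenylase genes was called rhythmic, at a background of 11.3% of all transcripts tested (1947 of 17299). All 8 passed the minimum of 10 counts, with means per library from 79.3 for Pan3 to 1768.5 for Cnot1. By edgeR the count was 0 of 8, and 1 of 8 had an unadjusted p under 0.05, as did 24.4% of all transcripts. The DESeq2 likelihood ratio test gave the same counts, where 15.6% of the transcripts with an adjusted p were called and 27.2% had an unadjusted p under 0.05. JTK_CYCLE, the rank test named in the study's methods, also called 0 of 8 after adjustment, where it called 3.68% of all transcripts on TMM CPM and 2.22% on CPM by total count, and on the latter Noct itself missed the call (q = 0.0508). At a P under 0.05, adjusted by JTK_CYCLE for the phases tried but not for the number of transcripts, it held 0 of 8 on TMM CPM and 2 of 8 on CPM by total count, against 17.7% and 22.2% of all transcripts. A missed threshold does not show a flat level. The 95% intervals of the least-squares fit bound only a 24 h cosine on TMM CPM, not other shapes or scalings. Upper bounds of the peak-to-trough difference were 0.41 (1.33-fold) for Cnot1, 0.41 (1.32-fold) for Cnot8, 0.79 for Cnot6 and 0.92 for Cnot6l. They were 0.98 for Pan3, 0.98 for Parn, 0.99 for Pan2 and 1.25 (2.37-fold) for Cnot7. All of these bounds lie below 2.24, the lower bound for Noct. Because this fit understates changes of low values, the bounds may be too low for genes with few reads. For Pan3 the fitted difference was 0.049, against 0.12 with the edgeR cosine and 0.905 with times as a factor in edgeR.

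**Figure D2:**
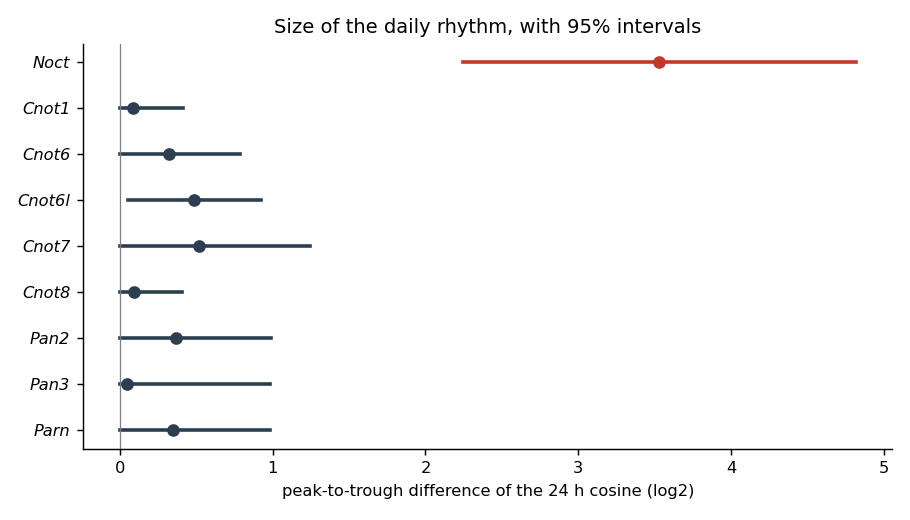
Peak-to-trough difference of the 24 h cosine (x axis, log2) from the least-squares fit for each of the 9 genes, as a point with its 95% interval as a line, over 14 libraries. The interval of Noct runs from 2.24 to 4.81 and those of the other 8 genes end at 1.25 or lower.

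Of the scaffold and the DEDD subunits of CCR4-NOT, Cnot1 and Cnot8 varied least on TMM CPM. Cnot1 had 25.2 and 28.6 CPM at CT0, 31.7 and 28.3 at CT4, 28.7 and 34.1 at CT8, 26.1 and 29.5 at CT12, 26.2 and 31.4 at CT16, 27.4 and 32.4 at CT20, and 31.2 and 33.1 at CT24. The libraries of every time overlapped with those of other times, replicate 2 was higher than replicate 1 at 6 of 7 times, and the peak-to-trough difference was 0.09 (edgeR, adjusted p = 0.908). Cnot8 ranged from 8.08 CPM in CT20 replicate 1 to 11.03 CPM in CT4 replicate 1, with a median of 9.93 CPM and a peak-to-trough difference of 0.09 (edgeR, adjusted p = 0.900). With total counts in place of TMM, where the median transcript itself moves, Cnot1 had a difference of 0.49 with a phase of 22.9 h (edgeR, adjusted p = 0.285). There Cnot8 had 0.41 and Cnot7 had 0.17 (edgeR, adjusted p = 0.462 and 0.899), so the order of these genes depended on the scaling.

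Cnot7, the second DEDD subunit, turned on a single library. Its levels were 1.45 and 1.53 CPM at CT0, 1.97 and 2.18 at CT4, 2.90 and 2.64 at CT8, 1.96 and 3.36 at CT12, 1.73 and 1.55 at CT16, 3.51 and 1.47 at CT20, and 1.43 and 1.90 at CT24. Both CT8 libraries were higher than those of CT0, CT4, CT16 and CT24, whereas the replicates of CT20 held the highest level of all and one of the lowest. With all 14 libraries the peak-to-trough difference was 0.59 with a phase of 10.4 h (edgeR, adjusted p = 0.389). Without CT20 replicate 1 it was 1.02 with a phase of 8.88 h, and the gene passed the threshold (edgeR, adjusted p = 0.0176). The library that holds the high pancreatic markers is the other replicate of CT20, and without it the difference was 0.55 (edgeR, adjusted p = 0.470).

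Of the EEP subunits, Cnot6l was highest at CT8 and Cnot6 at CT20, neither with a rhythm that passed the test. Cnot6l had 3.71 and 4.23 CPM at CT0, 3.80 and 4.21 at CT4, 5.12 and 6.28 at CT8, 3.09 and 4.33 at CT12, 3.73 and 3.35 at CT16, 3.25 and 3.54 at CT20, and 3.67 and 3.85 at CT24. Both CT8 libraries lay above all others. Those of CT12 spanned the levels of all the remaining times, while both CT20 libraries lay below those of CT0, CT4 and CT24. Its peak-to-trough difference was 0.57 with a phase of 6.96 h, which has an unadjusted p of 0.0237 but did not pass the threshold (edgeR, adjusted p = 0.131), and it was the member with the lowest p after Noct. Cnot6 ranged from 1.63 CPM in CT16 replicate 2 to 3.40 CPM in CT20 replicate 1, with a median of 2.60 CPM and a difference of 0.39 (edgeR, adjusted p = 0.484). The Cnot6 difference was 0.79 with total counts and 0.20 with CDS reads only (edgeR, adjusted p = 0.156 and 0.911). The E-prime box shown above for Cnot6l lies in 1 of its 3 windows, that of the start site of NM_001285511 and not of NM_144910, whose rhythm is given here. Parn, with the same letters in its window, had a difference of 0.38 (edgeR, adjusted p = 0.506).

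Pan2, Pan3 and Parn showed no rhythm that passed the test, and Pan3 had the lowest level of the 9 genes. Pan2 ranged from 2.80 to 6.08 CPM with a median of 3.89 CPM, and its replicates at CT16 were 2.80 and 5.66 CPM, so that the lowest library of all and one of the highest came from the same time. Its peak-to-trough difference was 0.41 (edgeR, adjusted p = 0.470). Pan3 ranged from 0.440 CPM in CT24 replicate 2 to 1.99 CPM in CT0 replicate 2, with counts of 25 and 124 in these libraries, and its difference was 0.12 (edgeR, adjusted p = 0.977). With total counts the Pan3 difference was 0.65 (edgeR, adjusted p = 0.550), and without CT24 replicate 2 it was 0.38. Parn ranged from 3.28 CPM in CT0 replicate 2 to 7.02 CPM in CT8 replicate 2, with a median of 4.66 CPM. Without both libraries that stood apart, the differences were 0.66 for Pan2 (edgeR, adjusted p = 0.250) and 0.62 for Parn (edgeR, adjusted p = 0.263), and the count of called genes among the 8 stayed at 0.

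Whether Noct moved relative to each other deadenylase was tested on the ratio of their reads within a library, which does not depend on scaling between libraries. Noct supplied 0.894% of the reads of the 9 genes in CT4 replicate 2 and 33.4% in CT12 replicate 2. At CT4 its share was 1.40% and 0.894%, at CT12 30.9% and 33.4%, and at CT16 21.4% and 16.2%, and the remaining libraries lay between 3.80% and 9.21%. Against Cnot1, the log2 ratio was lowest in CT4 replicate 2 (−5.71) and highest in CT12 replicate 2 (−0.05), where Noct reads nearly equalled those of the scaffold. Against Cnot8 it rose from −4.15 to 1.71 between the same libraries.

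All 8 ratios followed a 24 h cosine, with peak-to-trough differences from 3.79 ± 0.66 (SE, against Cnot7) to 4.36 ± 0.62 (SE, against Cnot6) and phases from 14.1 to 14.8 h. Two-sided permutation tests of the fit, with 100000 shuffles of the libraries over the times, gave p = 4e-05 against Cnot6 and Cnot8 and p = 0.00224 against Pan3, the highest of the 8. After Benjamini-Hochberg adjustment over the 8 ratios, the values ran from 0.00012 to 0.00224. The 8 ratios share the counts of Noct and are not independent of each other.

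**Figure D3:**
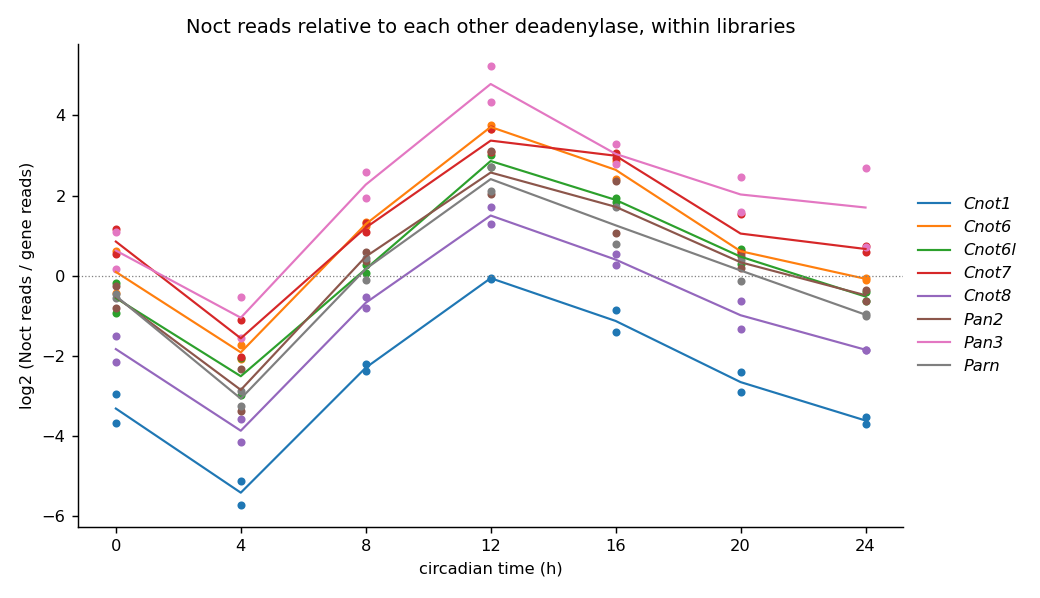
Log2 ratio of Noct reads to the reads of each other deadenylase (y axis) against circadian time in hours (x axis), with a point for each library and lines through the means of 2 mice. All 8 lines are lowest at CT4 and highest at CT12, and the ratio to Cnot1 peaks just under 0.

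Levels of different genes were compared per length, as CDS reads per kilobase scaled to library depth (RPKM). Over the 14 libraries the CDS density, as mean ± SD, was 10.1 ± 1.11 for Cnot8, 5.29 ± 5.71 for Noct, 3.82 ± 0.447 for Cnot1 and 2.53 ± 0.588 for Parn. It was 2.23 ± 0.441 for Cnot6l, 1.76 ± 0.634 for Cnot7, 1.10 ± 0.259 for Pan2, 1.08 ± 0.269 for Cnot6 and 0.517 ± 0.165 for Pan3. Among 17023 transcripts Cnot8 lay at the 79.2 percentile and Pan3 at the 18.0 percentile of mean CDS density. The DEDD subunit Cnot8 thus stood at the top of the set and Pan3, the partner of Pan2, at the bottom.

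The place of Noct in this order changed with time. At CT12 it was the densest of the 9 genes, with 17.1 ± 3.02 RPKM (SD, n = 2) against 9.14 ± 1.03 RPKM for Cnot8, and the values of the replicates, 14.9 and 19.2 against 9.87 and 8.41 RPKM, did not overlap. At CT4 it was the least dense, with 0.611 and 0.396 RPKM, next to Pan3 with 0.477 and 0.622 RPKM, and these overlapped. It ranked 5th at CT0, 2nd at CT8 and CT16, 3rd at CT20 and 5th at CT24. Across all libraries, its density ranged from 0.396 to 19.2 RPKM, whereas that of Cnot8 ranged from 8.10 to 11.9 RPKM.

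Of the 36 pairs of genes, 30 differed in CDS density by a two-sided exact permutation test that flips the sign of the log2 ratio within libraries (Benjamini-Hochberg adjustment over the 36 pairs). The smallest p this test can give over 14 libraries is 0.000122. Cnot8 exceeded Cnot1, the next gene with a steady level, by 1.41 ± 0.19 (log2, SD over 14 libraries) and its fellow DEDD subunit Cnot7 by 2.58 ± 0.57. In the EEP pair, Cnot6l exceeded Cnot6 by 1.07 ± 0.43 in 14 of 14 libraries. With CDS reads, the neighbours in the order that did not pass were Noct and Cnot1 (−0.29 ± 1.65, exact adjusted p = 0.535), Parn and Cnot6l (0.17 ± 0.38, exact adjusted p = 0.145), and Pan2 and Cnot6 (0.03 ± 0.53, exact adjusted p = 0.831). Noct, with the higher mean RPKM, was denser than Cnot1 in 5 of 14 libraries. Noct, whose level crossed theirs within the day, also did not pass against Parn, Cnot6l or Cnot7 (0.88 ± 1.57 against Cnot7, exact adjusted p = 0.0661). Single libraries decided some of these calls: Noct passed against Cnot7 without either CT4 library (exact adjusted p = 0.0315 without replicate 1 and 0.0190 without replicate 2), and Parn passed against Cnot6l without CT0 replicate 2 (exact adjusted p = 0.0403).

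The order between genes depended on the region counted, because the annotated 3′UTRs carry few reads and differ in length relative to the CDS. They reach 6847 nt for Cnot6l. For Cnot8 the 3′UTR has 1006 nt beside a CDS of 885 nt, and for Cnot1 956 nt beside 7164 nt. Per nucleotide of the whole transcript the lead of Cnot8 over Cnot1 was 0.45 (log2) in place of 1.41, still past the threshold. All 3 neighbouring pairs named above changed: the log2 ratio was −1.18 for Noct to Cnot1 (exact adjusted p = 0.0237), 1.89 for Parn to Cnot6l and 1.09 for Pan2 to Cnot6 (exact adjusted p = 0.000176 for both). Noct passed against Cnot6l (1.74, exact adjusted p = 0.00318) and Cnot7 (1.00, exact adjusted p = 0.0430) but not against Pan2 (0.72, exact adjusted p = 0.150) or Parn (−0.15, exact adjusted p = 0.745). The log2 ratio of Cnot6l was −0.74 to Cnot7, −1.02 to Pan2 and 0.07 to Cnot6 (exact adjusted p = 0.502 for the last), and that of Cnot7 to Pan2 was −0.28 (exact adjusted p = 0.0942).

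**Figure D4:**
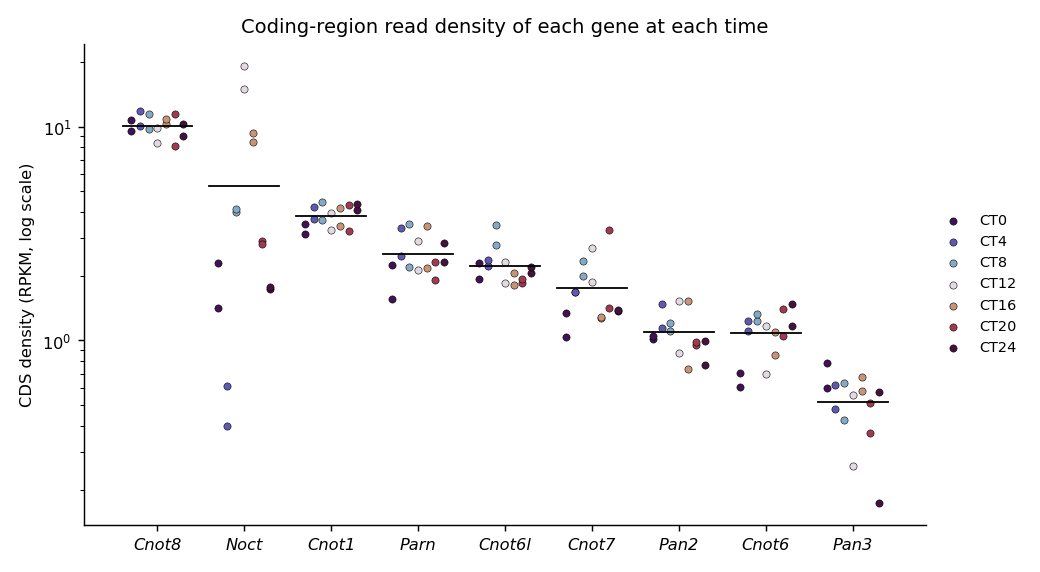
CDS density in RPKM (y axis, log scale) of each library for the 9 genes, ordered by their mean (black line), with the 7 times from CT0 to CT24 side by side within a gene and marked by colour. Noct spans from 0.396 to 19.2 RPKM and holds both the lowest mean of the set at CT4 and the highest at CT12, while Cnot8 stays between 8.10 and 11.9 RPKM.

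Reads that align to several places are a limit for some members, since the study's methods keep reads with a unique location. No 28-base stretch of a CDS was shared between the 9 genes. Elsewhere in the genome, however, 340 of the 852 stretches of the Cnot8 CDS (39.9%) and 1045 of the 7089 of the Cnot1 CDS (14.7%) occurred again, and 0 did for the other 7 genes. The part of this in the density of Cnot8 and Cnot1 was not tested.

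Ribosomes ahead of the CDS were common on several members. The 5′UTR held 27.8% of the 5′UTR and CDS reads of Cnot7 (490 reads against 1270), 27.4% of those of Cnot6 (576 against 1527) and 16.5% of those of Noct (1193 against 6024), while the median over 15803 transcripts with a 5′UTR of at least 30 nt was 4.43%. The share was 8.26% for Cnot8, 7.39% for Cnot1, 6.58% for Pan2, 5.92% for Cnot6l and 5.83% for Parn, and Pan3 has no 5′UTR in the files. These shares are those of the transcript with the highest mean count of each gene, and the median over the transcripts of 10373 genes chosen in the same way was 4.45%. Other transcripts of a member could lie far from these: among those of Cnot6l the share ran from 0.063% for NM_178854 to 27.6% for NM_001285514.

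Per nucleotide the order was different, because the lengths of both the 5′UTR and the CDS differ between genes. Cnot1 and Cnot7, for example, have 5′UTRs of 304 and 311 nt but a CDS of 7164 and 864 nt. The read density per nucleotide of the 5′UTR over that of the CDS (log2) averaged 0.85 ± 0.61 for Cnot1 (SD, n = 14), whose 5′UTR was the denser region in 13 of 14 libraries, against a median of −1.55 for the same mean over the 15803 transcripts. It was 0.31 ± 1.52 for Cnot6l, 0.25 ± 2.14 for Cnot6, 0.00 ± 0.62 for Cnot7, −0.24 ± 0.44 for Parn, −0.28 ± 0.95 for Pan2 and −1.02 ± 0.66 for Cnot8. For Noct it was −1.65 ± 0.80, the CDS being denser in all 14 libraries, which is the 47.9 percentile of these transcripts. Noct, with its 657 nt of 5′UTR, thus had a high share of 5′UTR reads but a density of them near the median. In CT12 replicate 1 the 5′UTR of Cnot6 held 0 reads, which alone gives a value of −6.14. The 5′UTR lengths of Cnot1 and Cnot8 in the files do not match the annotation used here, so their uORFs are not described.

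**Figure D5:**
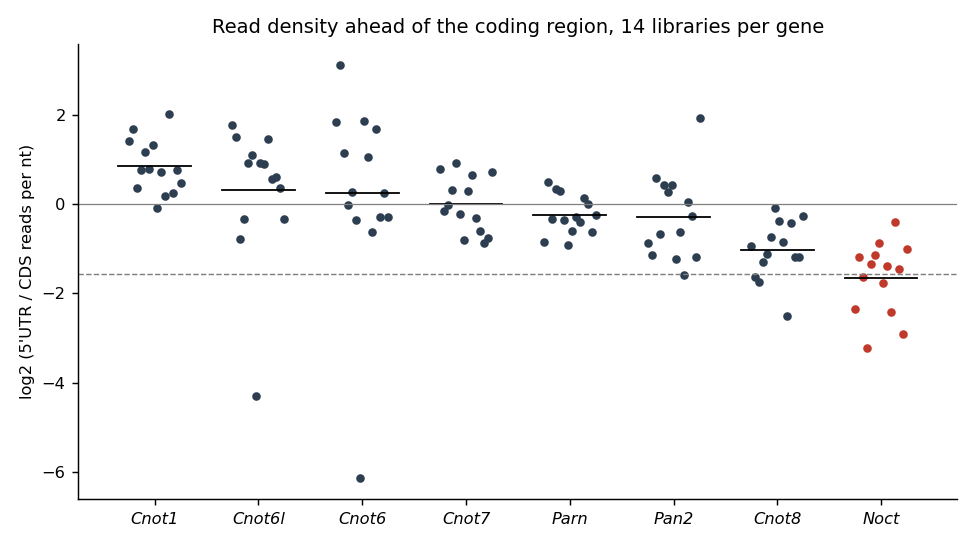
Read density per nucleotide of the 5′UTR over that of the CDS (y axis, log2, 0.5 added to each count) for the 8 genes with a 5′UTR in the files, with a point per library in time order from left to right and the mean as a black line. The solid grey line marks equal density and the dashed grey line the median of the same mean over 15803 transcripts (−1.55), and Noct lies below equal density in all 14 libraries.

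The 5′UTR to CDS ratio was then tested over time in the 7640 transcripts whose mean count reached 10 in both regions (limma). It was called rhythmic in 0 of them (0%), with 377 at an unadjusted p under 0.05, and for the 8 members tested no unadjusted p lay under 0.05. The share of 5′UTR reads of Noct was 8.81% and 18.0% at CT0, 13.6% and 3.57% at CT4, 16.7% and 18.6% at CT8, 21.6% and 13.0% at CT12, 16.3% and 8.67% at CT16, 27.6% and 15.5% at CT20, and 5.98% and 20.1% at CT24. Replicates of 1 time differed as much as the times did, and the fitted peak-to-trough difference of the ratio was 0.66 (limma, adjusted p = 0.880).

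Transcripts of 1 gene share most of their reads, so they are no independent measurements. The 3 transcripts of Cnot1 had mean counts of 1756.64, 1767.29 and 1768.5 per library, which shows that a read was entered for each transcript that holds it. The 4 transcripts of Cnot6l differ at their 5′ ends, and the reads there were unequal. NM_144910 had 198 reads over 65 nt of 5′UTR, whereas NM_178854 had 2 over 59 nt and NM_001285511 had 14 over 197 nt. NM_001285514, which has 7 uORFs, had 872 reads over 357 nt, while its CDS, which is shorter in the files (1378 nt against 1664 nt), held 2288 reads against 3149 for NM_144910, so its 5′UTR takes in reads that lie in the CDS of the others. For Cnot7 the 5′UTR of NM_001271542 held 69 reads over 240 nt, against 490 over 311 nt for NM_011135.

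The genes whose time course was most like that of Noct, by Pearson's r of log2(TMM CPM + 0.5) over the 14 libraries among 8139 genes, were Usp2 (r = 0.97), St3gal5 (r = 0.96), Per3 (r = 0.95), Gys2 (r = 0.95) and Bhlhe40 (r = 0.95). These r are a description, since they were ranked on the same libraries. Per3 and Bhlhe40 belong to the circadian clock, Usp2 is a deubiquitinase, and Gys2 is the glycogen synthase of liver. Their phases were 13.5 h for Usp2, 14.4 h for St3gal5, 13.9 h for Per3, 13.9 h for Gys2 and 14.1 h for Bhlhe40. Among the other deadenylases r with Noct ran from −0.46 for Cnot6 to 0.28 for Cnot7, without Pan3, which had under 100 counts per library.

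Other genes of the pathway were taken from fixed lists, 1 transcript each, and 7 of the 56 tested (12.5%) were called rhythmic, near the 11.3% of all genes. Of the 6 remaining CCR4-NOT subunits 0 were called by edgeR, with 0 at an unadjusted p under 0.05 and 0 by DESeq2, and their median peak-to-trough difference was 0.20, against 0.44 over all genes and 0.39 over the 8 other deadenylases. The adaptors that bring deadenylases to mRNA held 5 called genes of 16 (median difference 0.61). Tob2 had a difference of 1.16 with a phase of 13.4 h (edgeR, adjusted p = 0.00199), and Btg1 had 1.38 with a phase of 0.351 h (edgeR, adjusted p = 0.000824) and both belong to the family of proteins that bind the DEDD subunits. Zfp36l1, which binds AU-rich elements, had 1.39 with a phase of 21.2 h (edgeR, adjusted p = 0.00451), Rc3h1 had 1.06 with a phase of 11.02 h (edgeR, adjusted p = 0.00776), and Tnrc6b, a partner of Argonaute proteins, had 0.49 with a phase of 10.3 h (edgeR, adjusted p = 0.0492).

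Of the 6 poly(A)-binding proteins and partners 1 was called, Pabpc1, with a difference of 1.21 and a phase of 14.9 h (edgeR, adjusted p = 0.0475), and the median of the list was 0.49. Of the 15 decapping and 5′ to 3′ decay genes 1 was called, the helicase Ddx6, with 0.69 and a phase of 11.8 h (edgeR, adjusted p = 0.00331), and the median was 0.43. The 4 tested relatives of the deadenylases by domain held 0 called genes by edgeR, with 1 at an unadjusted p under 0.05 and 0 by DESeq2 (median 0.37). The 9 genes of poly(A) tail extension also held 0 by edgeR, with 3 at an unadjusted p under 0.05 and 2 by DESeq2 (median 0.43), beside 24.4% and 15.6% of all transcripts. With total counts in place of TMM, 3 of the 56 were called, beside 8.24% of all transcripts, and Tob2, Rc3h1, Tnrc6b, Pabpc1 and Ddx6 lost the call (adjusted p = 0.118, 0.286, 0.990, 0.166 and 0.597 by edgeR). Tnrc6b and Pabpc1 also lost it without 12 and 10 of the 14 libraries, left out in turn.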

How the data were processed

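Ribosome-protected fragments from 14 mouse livers, of 26 to 34 nt when cut from the gel, were analysed, and by the methods the longest of these reads were later discarded. Per the methods, the authors clipped reads, removed rRNA and aligned the rest to mm10 (Bowtie2 2.1.0.0, SAMtools 0.1.19.0). The values used are raw counts per RefSeq transcript and region (5′UTR, CDS, 3′UTR), deposited by the authors without normalization. How reads shared by transcripts were counted is not given in the sources used here. A second run of CT16 replicate 2 was not used separately.

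Counts of the 3 regions were summed. Rhythms were tested with edgeR 4.0.16 (TMM, quasi-likelihood F test of cosine and sine terms, period 24 h) in R 4.3.3 over the 17299 transcripts whose mean count reached 10, with Benjamini-Hochberg adjustment and a threshold of 0.05. The 5′UTR to CDS ratio (0.5 added) was tested with limma 3.58.1. JTK_CYCLE and DESeq2 1.42.0 served as alternatives. Ratios and densities were tested by permutation in Python 3.11 (scipy 1.17.1). CPM and RPKM were computed here from the counts and effective library sizes. Each gene is given by its transcript with the highest mean count. The edgeR, DESeq2, limma, JTK_CYCLE and permutation steps were tested on simulated data. Sequences came from RefSeq on GRCm38.p6, and uORFs were counted as ATG codons followed in frame by a stop codon within the 5′UTR.

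The named genes were the 9 members, the 5 genes most like Noct and the called genes of each pathway list, up to 5. Members and lists were chosen with earlier results of these data known. With 2 mice per time an SD rests on 2 values. The alternatives were other scalings, count minimums, regions, pseudocounts and tests, CT24 left out, each library left out and a replicate block. Same-numbered replicates did not deviate together (r of deviations from −0.11 to 0.27, over 0.1 in 3 of 21 pairs), so the numbers were not taken to pair the samples, although some measures differed between the replicate series with the same sign at most times (the TMM factor was lower in replicate 2 at 6 of 7 times). A fit with the number as a block is given as an alternative.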

Additional observations from a re-analysis of the deposited data

How the results depend on the processing

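The rhythm of Noct passed the threshold in 29 of 29 count model settings, with an adjusted p of at most 8.93e-05. It missed it with JTK_CYCLE on CPM by total count (peak-to-trough difference 3.29, q = 0.0508), though not on TMM CPM (q = 0.0339), and leaving out each library in turn gave 3.48 to 4.02. The number of rhythmic transcripts, 1947, was 1225 with times as a factor, 384 with JTK_CYCLE on CPM by total count, 637 with it on TMM CPM, and 1245 with 1 transcript per gene, where fewer were tested, and ran from 1499 to 2058 with each library left out. It was 1480 without both libraries that stood apart, a setting chosen after seeing the data. The number of the 8 other deadenylases called rhythmic ran from 0 to 1 with each library left out, 1 being Cnot7 without CT20 replicate 1. The ratio of Noct to each other gene passed in 8 of 8 cases under every alternative run. Between pairs of genes, 30 to 32 of 36 differed under the alternatives. With whole-transcript reads per nucleotide the log2 difference reversed for Noct against Parn (−0.15), Cnot6l against Cnot7 (−0.74), Cnot6l against Pan2 (−1.02) and Cnot7 against Pan2 (−0.28). In that setting 5 pairs gained the call (among them Pan2 against Cnot6, 1.09) and 3 lost it, Cnot7 against Pan2 among them. Cnot8 against Cnot1 fell to 0.45, since the length of the 3′UTR relative to the CDS enters. Pan2 against Cnot6 ran from −0.03 to 0.10 with each library left out, reversing without CT0 replicate 1 (−0.0078), CT0 replicate 2 (−0.028) and CT16 replicate 2 (−0.031). Where no reason is stated, the cause was not tested. With the replicate number as a block, Noct had 3.78 (edgeR, adjusted p = 2.32e-05) and 1916 transcripts were called. Tnrc6b and Pabpc1 lost the call there (edgeR, adjusted p = 0.0613 and 0.0554), and of the members and the other called pathway genes none changed its call with the block. Of 7 pathway genes called, the number was 3 with total counts and 11 with the DESeq2 likelihood ratio test, where 8.24% and 15.6% of all transcripts were called. Of 1404 values of single genes, pairs and lists under the alternatives, apart from the rhythm of Noct and the counts over all transcripts and over the 8 other deadenylases, 1343 were unchanged. Unchanged means the same side of the threshold, for CDS density ratios also the same sign, and for list counts a similar number. Peak-to-trough differences have no sign, and phases were not compared. With total counts, for example, the phase of Cnot8 was 22.8 h in place of 6.87 h. Depth limits Pan3 most, with 79.3 counts per library on average.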
